A study of Mus musculus with 3 samples.

Results

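The 8 genes described here, *Snai1*, *Snai2*, *Twist1*, *Twist2*, *Zeb1*, *Zeb2*, *Prrx1* and *Prrx2*, encode transcription factors that are best known for driving and holding a mesenchymal cell state. They were taken from the expression table by gene symbol alone, and all 8 were found, each in 1 of the 15554 rows. RNA-seq had been carried out on NIH3T3, an established line of mouse embryonic fibroblasts, to compare the transcriptome after GDF15 with that after TGF-β. All cells were first deprived of serum for 24 h in IMDM and then spent 24 h more in fresh serum-free IMDM. In that second period the CTRL cells received no stimulation, the GDF15 cells had GDF15 protein at 100 ng/mL, and the TGF-β cells had TGF-β protein at 4 ng/mL. For each treatment 3 RNA preparations were pooled into 1 library, so there is no replicate error and no test between treatments. The cells are 1 immortalized line, and every difference below is between single libraries.

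The proteins fall into 4 pairs of paralogues. SNAI1 and SNAI2 (Snail and Slug) are zinc finger repressors, and ZEB1 and ZEB2 are larger repressors with zinc finger clusters and a homeodomain. Both families bind E-boxes of the form CACCTG, read as CAGGTG on the other strand, and silence epithelial genes such as *Cdh1*, which encodes the junction protein E-cadherin. TWIST1 and TWIST2 are basic helix-loop-helix proteins that pair with E proteins, and ID proteins compete for the same partners. PRRX1 and PRRX2 are paired-type homeodomain proteins of limb and craniofacial mesenchyme. TGF-β acts through receptor kinases and SMAD proteins, and *Snai1* is a well-known target of this pathway in epithelial cells, where the programme is called epithelial-mesenchymal transition. NIH3T3 cells are already mesenchymal, so these genes are read here in a fibroblast and not in a transition.

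Values are FPKM, the fragments of a gene per kilobase of its exons and per 1e6 fragments mapped, so they are per length and can be compared between genes. Changes are differences of log2(FPKM + 1), which understate the change of low genes, and strongly so near or below 1 FPKM. Sequencing depth is not given in the sources used here. The spacing of low FPKM values in genes with a single annotated transcript gave estimates of 18.7, 21.9 and 17.9 (1e6 fragments) for CTRL, GDF15 and TGF-β. Of those low values, 66.4% to 71.8% lay within 0.1 of a whole fragment. The intervals below are 95% counting intervals on fragment numbers estimated with these depths. They hold counting error alone and not the spread between cultures. Of the 15554 rows, 9226 had a mean of 1 FPKM or more over the 3 libraries, and all 8 genes were among them. As a check on the label, 10 of 11 fibroblast markers averaged 1 FPKM or more, with *Lum* at or near 0, whereas 0 of 6 endothelial and 0 of 6 skeletal muscle markers and 2 of 6 immune markers (*Cd14* and *Cd68*) did. In bulk RNA, fewer cells expressing a gene and less RNA per cell cannot be told apart.

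In the TGF-β library *Snai1*, *Snai2* and *Twist2* differed from CTRL by more than the other 5 genes did. *Snai1* was 1.65-fold higher with TGF-β than in CTRL, *Snai2* was 1.65-fold lower and *Twist2* was 2.24-fold lower. In the GDF15 library *Snai1* was 1.35-fold higher and *Twist2* 1.38-fold lower. *Snai2*, *Prrx1*, *Zeb1* and *Zeb2* in the GDF15 library had ratios to CTRL between 0.971 and 1.07. The FPKM of all 8 genes summed to 217 in CTRL, 212 with GDF15 and 178 with TGF-β.

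Because the Snail and ZEB proteins read the E-box, the sequence just before the gene start is shown for the genes with the highest and the lowest change in the TGF-β library, *Snai1* and *Twist2*. Each run is 250 bases, 5′ to 3′ on the strand of the gene, from RefSeq (GRCm38.p6), and capitals mark an E-box. The *Snai1* sequence is chr2:167537945-167538194 and the *Twist2* sequence is chr1:91801211-91801460, both on the plus strand.
Snai1: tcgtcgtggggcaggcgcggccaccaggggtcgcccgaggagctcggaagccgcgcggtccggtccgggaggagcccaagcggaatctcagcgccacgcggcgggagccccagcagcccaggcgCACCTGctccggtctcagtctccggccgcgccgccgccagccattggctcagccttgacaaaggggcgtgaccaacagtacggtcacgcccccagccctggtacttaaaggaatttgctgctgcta
Twist2: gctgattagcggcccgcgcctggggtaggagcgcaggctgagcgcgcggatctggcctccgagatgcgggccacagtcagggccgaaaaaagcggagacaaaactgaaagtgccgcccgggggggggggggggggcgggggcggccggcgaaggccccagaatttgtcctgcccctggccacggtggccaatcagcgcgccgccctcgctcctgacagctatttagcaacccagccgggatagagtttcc

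The *Snai1* run holds 1 E-box, CACCTG, at 167538069 to 167538074, whose first base lies 126 bases before the gene start, and its GC content is 70.0%. The *Twist2* run holds no CACCTG or CAGGTG, and its GC content is 68.8%. In all, 9 promoter entries of 6 of the genes were searched on both strands, and the *Snai1* run was the 1 that held the motif. *Snai2* and *Zeb1* were not searched. Among 32851 RefSeq mouse promoters of the same length, 5657 (17.2%) held it. The match describes letters in a window and not binding.

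*Prrx1* was the highest of the 8 genes in every library and *Twist1* the lowest. In CTRL the order of FPKM ran from *Prrx1* (51.0) through *Snai2* (43.2), *Prrx2* (30.4), *Zeb1* (25.9), *Twist2* (24.3), *Zeb2* (17.9) and *Snai1* (13.1) to *Twist1* (11.5). Neighbours with overlapping counting intervals were *Zeb1* with *Twist2* and *Snai1* with *Twist1*. In the GDF15 library the order was *Prrx1*, *Snai2*, *Zeb1*, *Prrx2*, *Zeb2*, *Snai1*, *Twist2* and *Twist1*, and the intervals overlapped for *Zeb1* with *Prrx2*, *Zeb2* with *Snai1*, and *Snai1* with *Twist2*. In the TGF-β library the order was *Prrx1*, *Prrx2*, *Snai2*, *Snai1*, *Zeb1*, *Zeb2*, *Twist2* and *Twist1*, and the intervals overlapped for *Prrx2* with *Snai2*, *Snai1* with *Zeb1*, and *Twist2* with *Twist1*. *Snai1* was thus 7th of 8 in CTRL and 4th with TGF-β, and *Twist2* went from 5th to 7th.

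**Figure D1:**
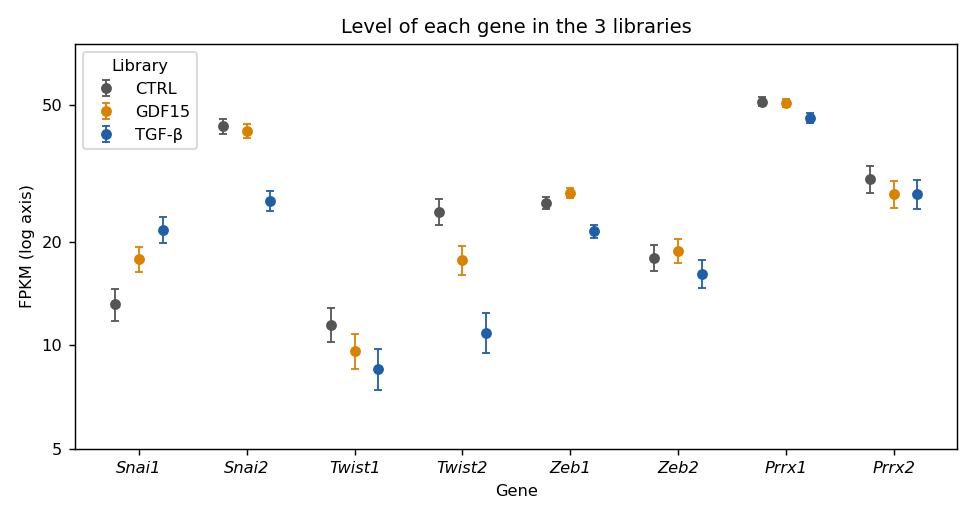
FPKM of each of the 8 genes (log axis) in the CTRL, GDF15 and TGF-β libraries, with bars for the 95% counting interval of the estimated fragments and 1 library per treatment. Snai1 was lowest in CTRL (13.1) and highest with TGF-β (21.7), Twist2 ran the other way (24.3 to 10.9), and the 3 points of Prrx1 stayed between 45.7 and 51.0.

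These are moderately expressed genes. Their median FPKM was 25.1 in CTRL, 23.1 with GDF15 and 21.6 with TGF-β, against 12.9, 12.6 and 12.2 for all rows with a mean of at least 1. Of those rows, 45.7% lay below *Twist1* and 88.3% below *Prrx1* in CTRL, and 37.2% and 87.0% with TGF-β.

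Of the Snail genes, *Snai1* (chromosome 2, 167538195 to 167542814, plus strand, GRCm38) was at 13.1 FPKM in CTRL, 17.8 with GDF15 and 21.7 with TGF-β. Its 3 counting intervals, 11.8 to 14.6, 16.3 to 19.3 and 19.9 to 23.6, did not overlap. The change was 0.41 with GDF15 (ratio 1.35, counting interval 1.18 to 1.55) and 0.68 with TGF-β (ratio 1.65, 1.43 to 1.89). For scale, a local spread is a robust SD, 1.4826 times the median absolute deviation of the changes of the 501 genes closest to it in mean level. The *Snai1* changes lay 1.90 and 3.25 local spreads above the local median, at rank 305 and 174 from the highest of the 9226 rows.

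*Snai2* (chromosome 16, 14705852 to 14709385, plus strand) was at 43.2 FPKM in CTRL, 41.9 with GDF15 and 26.2 with TGF-β. The CTRL and GDF15 intervals overlapped (41.0 to 45.5 and 39.95 to 44.0), and the TGF-β interval (24.5 to 28.0) lay below both. With GDF15 the ratio to CTRL was 0.971 (0.905 to 1.04), and with TGF-β it was 0.607 (0.557 to 0.661), a change of -0.70 that lay at -3.02 local spreads from the local median, at rank 155 from the lowest. The paralogues thus differed in opposite directions in the TGF-β library, while in the GDF15 library *Snai1* was higher and the *Snai2* interval included no difference.

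The balance of the pair differed between the libraries. *Snai1* made up 23.3% of the summed FPKM of *Snai1* and *Snai2* in CTRL (counting interval 21.2% to 25.5%), 29.7% with GDF15 (27.7% to 31.8%) and 45.3% with TGF-β (42.5% to 47.9%). *Snai2* exceeded *Snai1* by a factor of 3.29 in CTRL and 1.21 with TGF-β. The sum of the pair was 56.3 in CTRL, 59.7 with GDF15 and 47.9 with TGF-β.

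Of the Twist genes, *Twist2* (chromosome 1, 91801461 to 91848028, plus strand) was at 24.3 FPKM in CTRL, 17.6 with GDF15 and 10.9 with TGF-β. The intervals, 22.3 to 26.6, 16.02 to 19.4 and 9.48 to 12.4, did not overlap. The change was -0.44 with GDF15 (ratio 0.725, 0.637 to 0.828) and -1.09 with TGF-β (ratio 0.446, 0.380 to 0.526), or -1.73 and -4.30 local spreads from the local median. With TGF-β this was rank 35 from the lowest of 9226 rows. Exons of *Twist2* overlap those of the antisense gene *Gm29100* over 1477 bases. Whether the strand was used in counting is not given in the sources used here, so reads of either strand there cannot be told apart.

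*Twist1* (chromosome 12, 33957671 to 33959829, plus strand) was at 11.5 FPKM in CTRL, 9.60 with GDF15 and 8.52 with TGF-β. The CTRL interval (10.2 to 12.8) overlapped that of GDF15 (8.53 to 10.7) and not that of TGF-β (7.43 to 9.75). The changes were -0.23 (ratio 0.838, 0.710 to 0.985) and -0.39 (ratio 0.744, 0.623 to 0.892), which is -1.11 and -1.45 local spreads from the local median. With the trends with length and GC content removed they were -0.05 and -0.26. *Twist1* made up 32.0% of the summed FPKM of the pair in CTRL (29.0% to 35.3%), 35.2% with GDF15 (31.8% to 38.7%) and 44.0% with TGF-β (39.4% to 48.9%). The sum of the pair was 35.8, 27.2 and 19.4 in the same order.

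The ZEB genes did not pass 1.5-fold in any comparison. *Zeb1* (chromosome 18, 5591860 to 5775467, plus strand) was at 25.9 FPKM in CTRL, 27.8 with GDF15 and 21.4 with TGF-β, and *Zeb2* (chromosome 2, 44983632 to 45117395, minus strand) was at 17.9, 18.8 and 16.1. As deposited, both were highest with GDF15 and lowest with TGF-β. For *Zeb1* the ratio to CTRL was 1.07 with GDF15 (1.02 to 1.13) and 0.827 with TGF-β (0.782 to 0.876), and both changes lay within 1 local spread of the local median. For *Zeb2* the ratios were 1.05 (0.933 to 1.18) and 0.900 (0.790 to 1.02), and both intervals included 1 at the transcript length taken. With the trends with length and GC content removed, the GDF15 changes turned below 0, to -0.04 for *Zeb1* and -0.20 for *Zeb2*, against 0.10 and 0.07 as reported. In that setting the TGF-β changes were -0.34 and -0.31, against -0.26 and -0.14. *Zeb1* made up 59.1%, 59.6% and 57.1% of the pair in CTRL, GDF15 and TGF-β, with overlapping intervals (56.8% to 61.4%, 57.5% to 61.7% and 54.5% to 59.6%). *Zeb2* has 17 annotated coding transcripts and exons shared with *Zeb2os* on the opposite strand and with small RNA genes. Its estimated fragment number therefore depends on the transcript taken, here 1 of 1762 bases, where the longest has 9124. A longer transcript gives more fragments and narrower intervals, so whether the *Zeb2* interval with TGF-β includes 1 depends on that choice. *Zeb1* overlaps *Gm10125* on the opposite strand over 198 bases.

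The Prrx genes did not pass 1.5-fold in any comparison either. *Prrx1* (chromosome 1, 163245119 to 163313710, minus strand) was at 51.0 FPKM in CTRL, 50.6 with GDF15 and 45.7 with TGF-β, and *Prrx2* (chromosome 2, 30834972 to 30881251, plus strand) was at 30.4, 27.4 and 27.5. The *Prrx1* ratio was 0.991 with GDF15 (0.953 to 1.03) and 0.896 with TGF-β (0.859 to 0.936). The *Prrx2* ratios were 0.903 (0.797 to 1.03) and 0.905 (0.793 to 1.03). Each of these 4 changes lay within 1 local spread of the local median. With the trends with length and GC content removed, the *Prrx1* changes were -0.20 and -0.27, against -0.01 and -0.15 as reported. *Prrx1* made up 62.7%, 64.8% and 62.5% of the pair in CTRL, GDF15 and TGF-β, again with overlapping intervals (60.4% to 64.9%, 62.7% to 66.9% and 60.1% to 64.9%).

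**Figure D2:**
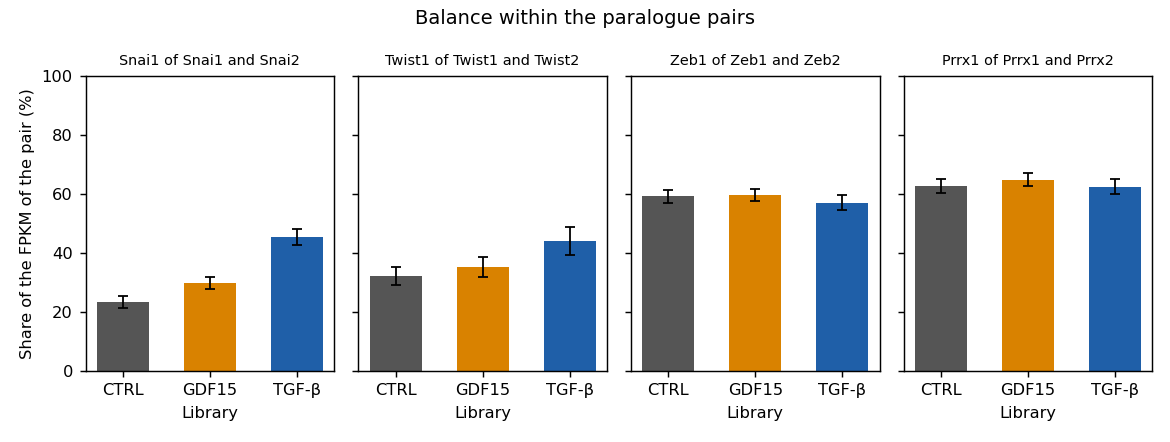
Share of the first paralogue in the summed FPKM of its pair (percent) in each library, with bars for the 95% counting interval. The share of Snai1 went from 23.3% in CTRL to 45.3% with TGF-β and that of Twist1 from 32.0% to 44.0%, while Zeb1 stayed between 57.1% and 59.6% and Prrx1 between 62.5% and 64.8%.

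A read of full length has no exact match in both genes of a pair. No stretch of 50 bases, the read length, was shared between annotated transcripts of any of the 28 pairs of genes. The longest shared stretch was 23 bases for *Snai1* with *Snai2* and for *Twist1* with *Twist2*, 35 for *Zeb1* with *Zeb2* and 19 for *Prrx1* with *Prrx2*. The longest of all was 44 bases, between *Zeb2* and *Prrx1*.

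Fold criteria were applied on the log2(FPKM + 1) scale. With GDF15, 0 of the 8 genes passed 2-fold, where 44 of 9226 rows (0.477%) did, and 0 passed 1.5-fold, where 260 rows (2.82%) did. With the trends with length and GC content removed, 1 of the 8 (*Snai1*) and 156 rows passed 1.5-fold, and with no pseudocount 0 of the 8 did at either fold, while 83 rows passed 2-fold and 428 passed 1.5-fold. The GDF15 changes were above 0 for 3 genes and below 0 for 5, with a median of -0.03, beside -0.03 for all rows, of which 44.4% were above 0. After removal of the length and GC trends, *Snai1* and *Prrx2* were the members above 0. With TGF-β, 1 of 8 passed 2-fold (*Twist2*, lower), against 137 rows (1.48%). At 1.5-fold, 3 of 8 passed (*Snai1* higher, *Snai2* and *Twist2* lower), against 516 rows (5.59%). The TGF-β changes were above 0 for 1 gene and below 0 for 7, with a median of -0.21 against -0.07 for all rows, of which 37.2% were above 0. After the same removal the *Prrx2* change was above 0 as well (0.02). Both comparisons use the same CTRL library, so an error in that library enters both.

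**Figure D3:**
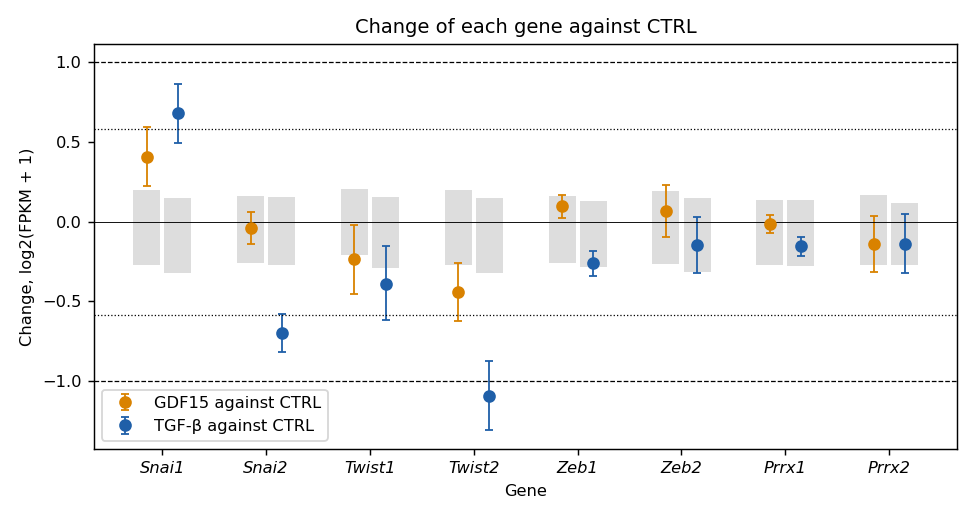
Change of log2(FPKM + 1) against CTRL for each gene with GDF15 and with TGF-β, with bars for the 95% counting interval. Grey boxes span 1 local spread on either side of the local median, dotted lines mark 1.5-fold and dashed lines 2-fold. Snai1 lay above its box in both libraries (0.41 and 0.68), Twist1 (-0.23 and -0.39) and Twist2 (-0.44 and -1.09) lay below theirs in both, and Snai2 lay below its box with TGF-β (-0.70).

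Comparing TGF-β with GDF15 directly does not use CTRL. *Snai2* was lower with TGF-β (change -0.66, ratio 0.625, 0.574 to 0.679), and so was *Twist2* (-0.65, ratio 0.616, 0.521 to 0.728). These lay at rank 36 and 37 from the lowest of 9226 rows. *Snai1* was higher by 0.27 (ratio 1.22, 1.08 to 1.37), and *Zeb1* was lower (-0.36, ratio 0.772, 0.731 to 0.815), at -2.34 local spreads from the local median. *Prrx2* was at 27.5 FPKM with TGF-β and 27.4 with GDF15, and the interval of its ratio was 0.878 to 1.14. The ratio was 0.887 for *Twist1* (0.743 to 1.06), 0.857 for *Zeb2* (0.757 to 0.969) and 0.904 for *Prrx1* (0.867 to 0.943). When the length and GC trends were removed, the change was -0.11 for *Zeb2* and -0.07 for *Prrx1*, against -0.21 and -0.14 as reported. Past 2-fold were 0 of 8 genes, against 15 rows (0.163%), and past 1.5-fold were 2 of 8, both lower, against 142 rows (1.54%), 84 of them higher and 58 lower. With no pseudocount 38 rows passed 2-fold and 267 passed 1.5-fold.

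**Figure D4:**
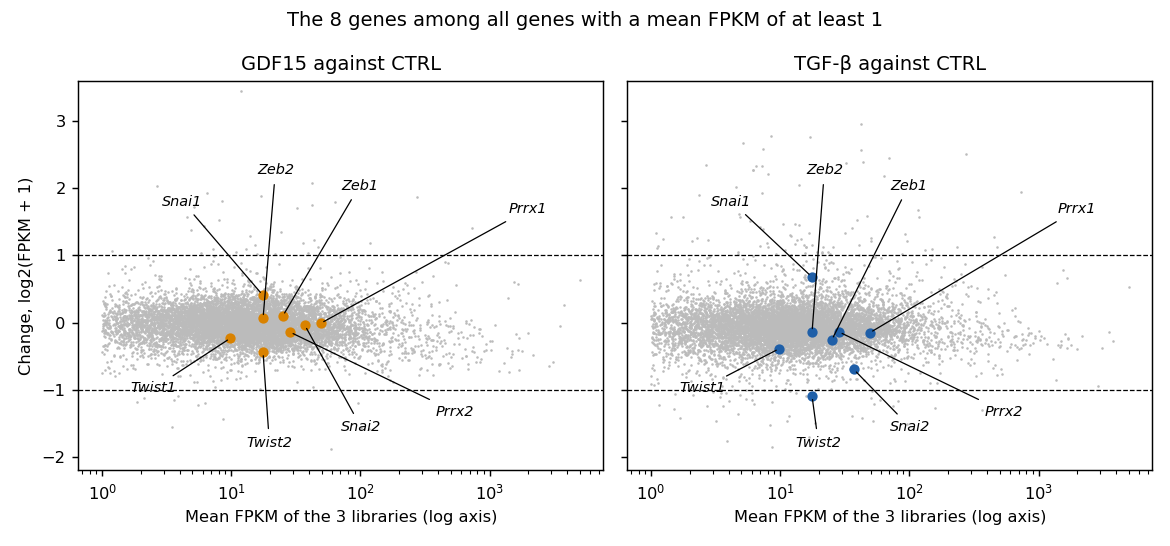
Change of log2(FPKM + 1) with GDF15 (left) and TGF-β (right) against the mean FPKM of the 3 libraries (log axis). Grey points are the 9226 genes that averaged 1 FPKM or more, coloured points are the 8 genes and dashed lines mark 2-fold. With GDF15 the coloured points lay between -0.44 and 0.41, and with TGF-β Twist2 lay below the lower line at -1.09.

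Transcript length moved with the changes. Genes are no independent replicates, but over the 5405 that averaged 10 FPKM or more, Spearman's rho between the change and longest coding transcript was 0.52 with GDF15, 0.26 with TGF-β and -0.36 for TGF-β against GDF15. The 8 genes ran from 1441 bases (*Prrx2*) to 9124 (*Zeb2*). Genes as long as *Snai1* (1621 bases) had a median change of -0.14 with GDF15 and -0.13 with TGF-β, so *Snai1* lay further above genes of its length than above 0. Genes as long as *Zeb1* (5801 bases) had a median of 0.09 with GDF15, against 0.10 for *Zeb1* itself, and genes as long as *Twist1* (1628 bases) a median of -0.14, against -0.23. Genes as long as *Prrx2* had a median of -0.16 with GDF15 and -0.14 with TGF-β, against -0.14 and -0.14 for *Prrx2*. With the trends with length and GC content removed, the *Snai1* change with GDF15 was 0.60, past 1.5-fold, while the signs for *Zeb1*, *Zeb2* and *Prrx2* with GDF15 and for *Prrx2* with TGF-β turned. What the relation to length comes from was not tested.

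**Figure D5:**
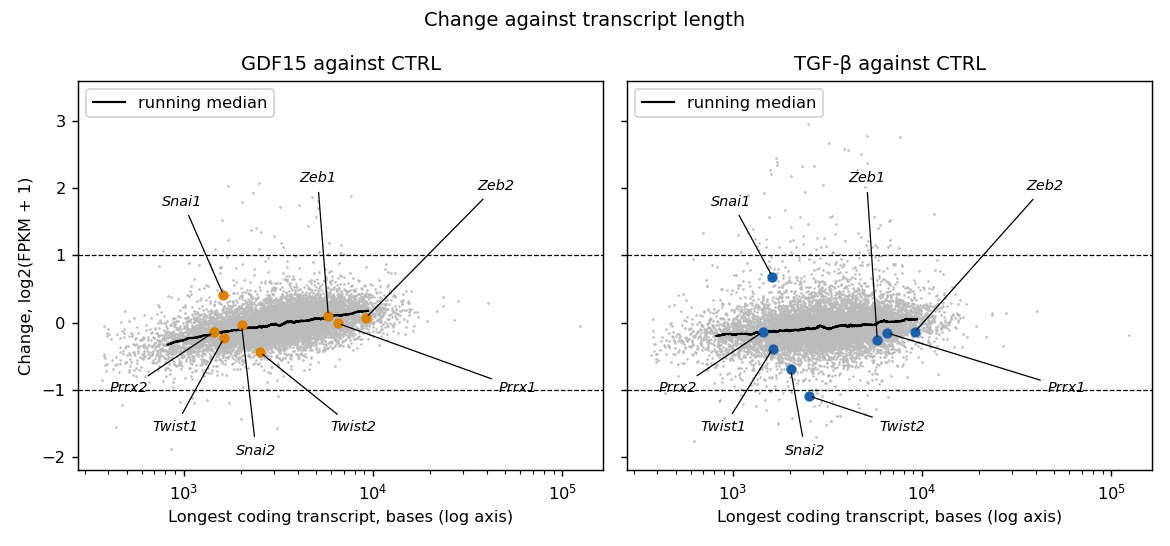
Change of log2(FPKM + 1) with GDF15 (left) and TGF-β (right) against longest coding transcript length in bases (log axis), with a running median over 501 genes and dashed lines at 2-fold. Zeb1 and Prrx2 lay near the running median with GDF15, while Snai1 lay above it and Twist2 below it in both panels.

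The other genes of the pathway give the setting of these factors. Of 24 epithelial genes, among them known targets of Snail and ZEB repression, 23 had a mean FPKM below 1, and the list summed to 4.86 FPKM in CTRL, 4.61 with GDF15 and 4.73 with TGF-β. Most of that sum was *Llgl2*, a cell polarity gene, at 3.28, 2.81 and 3.37. *Cdh1*, chosen after its values were seen, was at 0.685 FPKM in CTRL, 0.555 with GDF15 and 0.186 with TGF-β, from an estimated 38.2, 36.3 and 9.94 fragments. The TGF-β ratio was 0.272, with a counting interval of 0.122 to 0.562, on fewer fragments than any of the 8 genes had. On the log2(FPKM + 1) scale the change was -0.51, not past 1.5-fold, since the added 1 shrinks it at this level. Other low members were higher with TGF-β than in CTRL, such as *Muc1* (0.552 FPKM in CTRL, 0.812 with GDF15 and 0.634 with TGF-β) and *Rab25* (0.0624, 0 and 0.262). No fragment numbers or intervals were estimated for these 2 genes, and *Rab25* was near 0 throughout.

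Of 12 mesenchymal genes, 11 averaged 1 FPKM or more. With GDF15, 3 of them were past 1.5-fold higher and 1 lower, and with TGF-β 4 were higher and 0 lower, where 2.82% and 5.59% of all rows passed in either direction. The median change was 0.36 with GDF15 and 0.46 with TGF-β, against -0.03 and -0.07 for all rows. *Acta2*, smooth muscle actin of contractile fibroblasts, was at 20.4 FPKM in CTRL, 73.6 with GDF15 and 96.1 with TGF-β. *Col1a1*, a chain of type I collagen, was at 1103, 1669 and 1902, and *Fn1*, fibronectin, at 3738, 5815 and 5385. *S100a4*, a calcium-binding protein used as a fibroblast marker, was lower with GDF15 (3817, 2529 and 2942). *Col1a2* and *Sparc*, a collagen-binding matrix protein, were past 1.5-fold with TGF-β (0.66 and 0.59). *Vim*, the intermediate filament vimentin (changes -0.15 and -0.40), and *Mmp14*, a membrane metalloproteinase (-0.15 and -0.53), were below CTRL in both libraries and not past 1.5-fold. Of the 8 factor genes, *Snai1* was the 1 that was higher than CTRL in both stimulated libraries with a counting interval that left out 1.

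Of 6 genes kept as a reference for the response, 5 (*Ctgf*, *Lox*, *Postn*, *Acta2* and *Skil*) were past 2-fold higher in both stimulated libraries, where 0.477% of all rows passed 2-fold with GDF15 and 1.48% with TGF-β. *Ctgf*, a matricellular growth factor, was at 9.03 FPKM in CTRL, 41.3 with GDF15 and 77.3 with TGF-β, and *Skil*, a SMAD corepressor, at 2.45, 6.07 and 8.86. The list was chosen from genes already known to be high in these libraries or as textbook targets, and it serves only as a scale for the factor genes. The *Snai1* changes of 0.41 and 0.68 compare with list medians of 1.76 and 2.35. *Smad7*, the inhibitory SMAD and the sixth gene of the list, was at 2.58 FPKM in CTRL, 3.28 with GDF15 and 4.36 with TGF-β. Its changes were 0.25 and 0.58. At so low a level the added 1 shrinks a change more than it does for *Snai1*, so the order of the 2 genes is not read.

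Of 3 E protein genes, whose products pair with Twist proteins, and 4 *Id* genes, whose products compete for E proteins, 5 in all averaged 1 FPKM or more. The E protein gene *Tcf3* was the highest, at 50.7 FPKM in CTRL, 42.7 with GDF15 and 38.0 with TGF-β. *Id3* was the 1 of these 5 past 1.5-fold, as 2.82% of all rows were with GDF15 and 5.59% with TGF-β. It was at 17.7, 9.78 and 11.1 FPKM (changes -0.80 and -0.63, lower in both). The ratios were 0.551 (0.465 to 0.654) and 0.627 (0.527 to 0.747). *Id1* was at 19.5, 17.8 and 23.9. The list's median change was -0.12 and -0.08, against -0.03 and -0.07 for all rows.

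Snail and ZEB proteins act through corepressors. All 18 listed genes, among them the CtBP, LSD1 and Polycomb components, averaged 1 FPKM or more, and 0 passed 1.5-fold with either stimulus. At the shares of all rows (2.82% with GDF15 and 5.59% with TGF-β) few or none of a list this short would pass, so nothing is read from that count or from the 0 of the next list. Changes ran from -0.36 to 0.36 with GDF15 and from -0.37 to 0.15 with TGF-β, with medians of 0.05 and -0.10. *Ctbp1*, which binds ZEB proteins, was the highest at 64.1, 57.8 and 59.3 FPKM. Of 16 genes for kinases, ubiquitin ligases and other enzymes of Snail or Twist protein turnover, 15 had a mean of at least 1 and 0 passed 1.5-fold, with medians of 0.12 and 0.11. *Csnk1a1*, casein kinase 1 alpha, was the highest at 70.9, 77.8 and 76.8 FPKM. Protein levels were not measured in these libraries.

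Close relatives of the 8 genes were nearly silent. Of 15 relatives 14 were found in the table, and 13 of these had a mean FPKM below 1. *Shox2*, a homeobox gene of limb mesenchyme, was the exception at 5.60 FPKM in CTRL, 5.20 with GDF15 and 4.06 with TGF-β. The remaining Snail family gene *Snai3* and the related *Scrt1* and *Scrt2* were listed at 0 in the 3 libraries.

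Among 21 other transcription factor genes of mesenchyme, 15 averaged 1 FPKM or more. With GDF15 0 of these passed 1.5-fold (2.82% of all rows did), and with TGF-β 3 did, lower in each case (5.59% of all rows did, 234 higher and 282 lower). *Osr1*, a zinc finger gene of mesoderm, was at 68.9 FPKM in CTRL, 58.7 with GDF15 and 41.8 with TGF-β, *Fosl1*, an AP-1 subunit gene, at 17.1, 11.9 and 10.2, and *Sox4* at 25.1, 23.2 and 15.7. Their TGF-β ratios were 0.607 (0.567 to 0.650), 0.594 (0.514 to 0.686) and 0.623 (0.582 to 0.669). Just short of 1.5-fold with TGF-β were *Osr2*, lower (change -0.57), and *Klf4*, higher (0.57). *Osr2* was at 3.30, 4.38 and 1.90 FPKM, and its TGF-β ratio was 0.575 (0.365 to 0.847), so the added 1 kept this low gene from passing. The gene with the highest mean, *Klf4*, was at 85.0, 97.3 and 127, and in CTRL *Hmga2* was above it at 92.7. The median change was -0.05 and -0.16, beside the -0.03 and -0.21 of the 8 genes.

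Some fibroblast markers, which are not transcription factors, were lowest with TGF-β, as *Snai2* was. *Pdgfra*, the receptor of platelet-derived growth factor on mesenchymal cells, was at 61.3 FPKM in CTRL, 61.3 with GDF15 and 35.0 with TGF-β, and *Dcn*, the matrix proteoglycan decorin, at 419, 408 and 249. Both were picked after their values were seen from a list of 11 markers. With TGF-β 2 of the 10 markers that averaged 1 FPKM or more were past 1.5-fold lower, these 2, and 2 were past it higher (of all rows 5.59% passed, 282 lower and 234 higher). The higher ones were *Col1a1* (0.79) and *Col1a2* (0.66), and *Fn1* (0.53) and *Thy1* (0.30) were above 0 too. *Vim* was lowest with TGF-β too, at 2245, 2018 and 1700 FPKM. By the rule of nearest pattern over the 3 libraries, applied to *Twist2* as the gene with the largest departure from no change, the closest of 7350 rows that averaged 5 FPKM or more were *Dbp* (18.4, 12.8 and 8.33), *Ptn* (71.0, 48.4 and 32.1) and *Abca8b* (12.6, 9.55 and 5.77). Their distances in the 2 changes were 0.06, 0.10 and 0.11 on the log2 scale. With 3 libraries, such likeness is a description of 2 differences.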

How the data were processed

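Poly(A) RNA from NIH3T3 cells was sequenced as 1 stranded library per treatment (3 libraries, RNA of 3 preparations pooled in each) in 50-base single-end mode. The authors deposited 1 table of FPKM from Cufflinks, which keeps the 15554 protein coding genes that UniProt lists as reviewed. The submitters' processing notes name TopHat 1.3.2, Bowtie 0.12.9, Cufflinks 2.0.2 and the mm10 build. The gene annotation and the strand setting are not given in the sources used here. Column names were matched to samples by treatment, since the cell line name in them counts upward as a filled spreadsheet does, and 0 columns were left unmatched.

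From the FPKM, log2(FPKM + 1) was computed with a pseudocount of 1, and changes were taken between libraries among the 9226 rows that averaged 1 FPKM or more. The 2-fold criterion is that of the study, and 1.5-fold was added. Depth was estimated from whole-fragment steps in FPKM times transcript length less 220 bases, and estimated fragment numbers gave exact 95% counting intervals, with the shortest coding transcript of at least 1000 bases as length. Lengths and coordinates came from GENCODE M21 (GRCm38), to which 15474 rows were matched by current or older symbol, and promoters from RefSeq (GRCm38.p6). *Snai2* and *Zeb1* were not searched for the motif. With 1 library per treatment no test was made.

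The 8 genes and the 12 gene and marker lists were chosen with earlier results of these data known. Named genes are the 8, list members that averaged 1 FPKM or more and passed 1.5-fold against CTRL (at most the 4 with the largest change), the highest member of each list and the 3 rows nearest in pattern to the most changed of the 8. Others are given to complete a comparison. There were 9 alternatives, namely pseudocounts of 0.5, 0.1 and none, no filter and a minimum mean of 5, scaling to the same upper quartile, and taking out the trends with expression, with length, and with length and GC content. The depth estimate, the calls and the trend removal were tested on simulated data. Scripts ran in Python 3.11.15, and used pandas 2.3.3 and numpy 2.4.6 for tables, scipy 1.17.1 for intervals and matplotlib 3.10.9 for plots.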

Additional observations from a re-analysis of the deposited data

How the results depend on the processing

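Under the 9 alternatives the number of the 8 genes past 2-fold and past 1.5-fold was the same as reported in the 3 comparisons, with 1 exception: with length and GC trends removed, 1 gene (*Snai1*, 0.60) passed 1.5-fold with GDF15. Counts over all genes moved more. With a pseudocount of 0.1, GDF15 gave 82 genes past 2-fold and 400 past 1.5-fold, and TGF-β against GDF15 gave 37 and 254. With no pseudocount, GDF15 gave 83 and 428, TGF-β against GDF15 gave 38 and 267, and TGF-β against CTRL gave 213 past 2-fold. With the length trend removed, GDF15 gave 160 past 1.5-fold, and with length and GC removed 156. Of 216 values of single genes, 200 stayed within the counting interval, 16 did not, and 12 changed sign, all for *Snai2*, *Zeb1*, *Zeb2*, *Prrx1* or *Prrx2*. The TGF-β change ranged from -1.16 to -1.01 for *Twist2*, from -0.75 to -0.63 for *Snai2* and from 0.68 to 0.81 for *Snai1*. With GDF15 it ranged from 0.41 to 0.60 for *Snai1*, from -0.46 to -0.39 for *Twist2* and from -0.25 to -0.05 for *Twist1*. Why these values moved was not tested, beyond what each setting changes by its construction.

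No paired analysis was possible because there is a single pooled library per treatment, and leaving out a library would end each comparison it is in. Differences between cultures are unknown, the depths are estimates, and the gene annotation behind the FPKM is not known here. A ratio near 1 for *Zeb2* or *Prrx2* does not show an equal level, only that its counting interval includes 1 at the transcript length taken.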
